A study of Mus musculus with 3 samples.

Results

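The 10 genes described here make polyamines, hold their level in check, or use spermidine to modify the translation factor eIF5A. They were chosen by symbol, and all 10 were found among the 17796 genes of the expression table and had a mean of at least 1 CPM (reads per gene scaled to 1000000 per library), as 13750 genes did. The libraries came from spleen T cells of C57BL/6 mice that were activated in culture over 3 days by anti-CD3 (2 ug/ml) and anti-CD28 (5 ug/ml) on the plate, together with IL-2 (100 IU/ml). The aged fumarate group and the aged vehicle group, both given as 24 months old, were dosed 3 times a week for 2 months, the first with fumarate at 10 mg/kg. The young group was 2 months old and is labelled vehicle, with no course of dosing stated for it. There was 1 library for each group, from an unstated number of mice, so every difference is without a replicate check and without a test.

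Ornithine decarboxylase, encoded by Odc1, makes putrescine from ornithine, and the spermidine synthase Srm and the spermine synthase Sms each add an aminopropyl group that S-adenosylmethionine decarboxylase (Amd1) provides. Antizymes (Oaz1, Oaz2) bind ornithine decarboxylase, send it to the proteasome and curb polyamine uptake, antizyme inhibitor (Azin1) is an inactive relative of the decarboxylase that draws antizyme away, and the acetyltransferase Sat1 marks spermidine and spermine for export or breakdown. Deoxyhypusine synthase (Dhps) moves the aminobutyl group of spermidine onto 1 lysine of eIF5A, and the hydroxylase Dohh completes hypusine. T cells are known to take up this pathway when they are activated and begin to divide. Much of its control acts on translation and protein breakdown, which RNA levels do not show.

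Part of that control can be read in the transcripts themselves. The antizyme reading frame is interrupted by a stop codon, and polyamines raise the share of ribosomes that shift by 1 base and read on. The 51 bases around that stop are shown because the RNA level of Oaz1 or Oaz2 counts transcripts and not completed antizyme. Both are written 5′ to 3′ on the plus strand of GRCm38, with the codon before the stop, the TGA stop and the base after it in capitals. They lie in coding exons, at chr10:80828271-80828321 for Oaz1 and chr9:65686248-65686298 for Oaz2.
Oaz1: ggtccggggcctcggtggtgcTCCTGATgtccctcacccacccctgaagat
Oaz2: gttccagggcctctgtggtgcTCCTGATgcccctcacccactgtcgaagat
The pair had 43 of 51 bases in common (84.3%), the capitals included, against 55% over the aligned coding sequences. The GENCODE annotation leaves out 1 base of each, at 80828295 and 65686272, which is the T of the stop.

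The lysine that Dhps and Dohh modify is encoded in Eif5a and in its paralog Eif5a2. The 45 bases around its codon are shown because both transcripts supply the substrate of the hypusination genes. The codon of lysine 50 is in capitals, and each stretch spans an exon junction, within chr11:69918016-69919189 on the minus strand and chr3:28782178-28782733 on the plus strand.
Eif5a: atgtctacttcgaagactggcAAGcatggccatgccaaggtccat
Eif5a2: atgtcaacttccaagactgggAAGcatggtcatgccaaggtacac

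The libraries differed in more than age and treatment. Depth was estimated at 13.9, 17.3 and 41.0 M reads for the aged fumarate, aged vehicle and young libraries. All 12 T cell markers examined were present, with summed levels of 4594, 3677 and 4077 CPM in that order. The aged vehicle library stood apart by markers of other blood cells. Its 8 erythroid and platelet markers summed to 1150 CPM, against 127 CPM in the fumarate and 10.6 CPM in the young library, and its 6 basophil and mast cell markers to 337 CPM, against 61.9 and 3.34 CPM. Macrophage and monocyte markers summed to 35.3, 54.5 and 23.9 CPM in the fumarate, vehicle and young libraries. Ly6c2 was the largest term of each sum, at 31.2, 26.9 and 21.1 CPM. The other 4 of the 5 with a mean of at least 1 CPM were at least 1.5-fold lower in fumarate over vehicle. Among them Lyz2 was at 0.722, 9.38 and 0.0488 CPM and Itgam at 0.577, 7.76 and 0.0488 CPM. Csf1r was at 0 in the fumarate and young libraries and Adgre1 at 0 in the fumarate library. B cell markers summed to 6.86, 9.79 and 5.03 CPM, and NK cell markers to 6.71, 19.8 and 0.756 CPM. The part of these other cells in the levels below was not tested. The comparison of fumarate with young does not use the vehicle library, and is given for each of the 10 genes. It differs in age and treatment at once. The fumarate library also held more erythroid, platelet, basophil and mast cell marker RNA than the young one, as the sums above show.

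Differences are log2 ratios of CPM + 1. On that scale none of the 10 genes was past 1.5-fold in any comparison, whether higher or lower, but the call rests on the added 1 for Oaz2, whose plain CPM ratio in fumarate over young was 0.660, past 1.5-fold lower. Among the 13750 genes, 16.5% were past 1.5-fold upward and 6.73% past 1.5-fold downward in aged vehicle over young, 2.15% higher and 11.2% lower in fumarate over vehicle, and 10.5% higher and 6.79% lower in fumarate over young. With the added 1, all 10 stayed within 1.5-fold in all 3 comparisons, as did 70.8% of the 13750 genes and 78.4% of the 9624 with a mean of at least 10 CPM. The median ratios over the 10 genes were −0.06, 0.10 and −0.01 in vehicle over young, fumarate over vehicle and fumarate over young, and 0.03, −0.02 and 0.00 over all genes. The 3 comparisons share libraries, so they are not independent of each other.

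**Figure D1:**
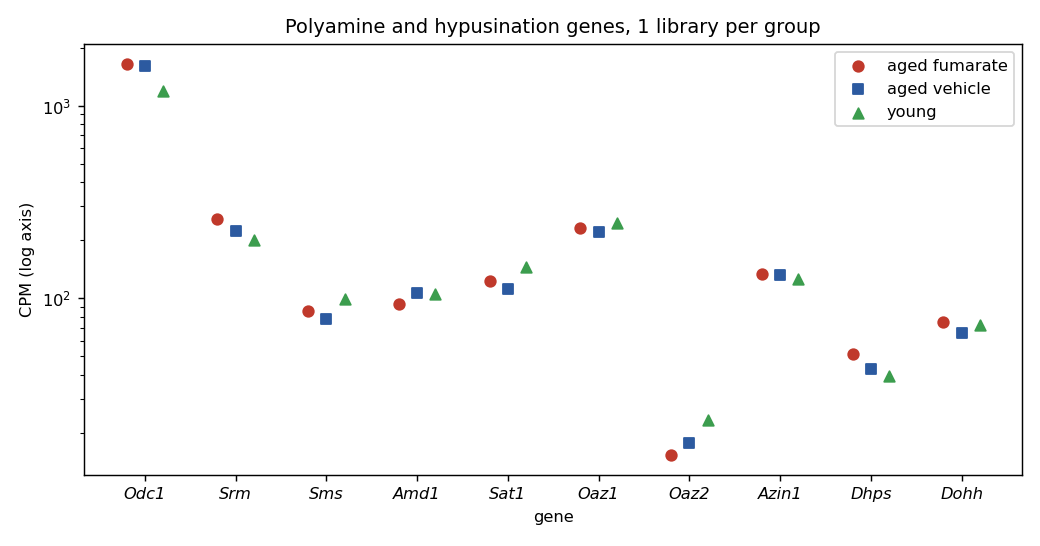
Level of each of the 10 genes in the aged fumarate (circle), aged vehicle (square) and young (triangle) library, in CPM on a log axis, with 1 library per group. Odc1 lies above the other 9 genes in every library and Oaz2 below them, and Odc1 is at 1653, 1606 and 1197 CPM.

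With the limit lowered to a log2 ratio of 0.32, Odc1 was the 1 gene higher in aged vehicle over young and Sms, Sat1 and Oaz2 were lower, where 26.6% of all genes were higher and 17.7% lower. In fumarate over vehicle 0 genes were higher and 0 lower, against 8.18% and 19.3% of all genes. In fumarate over young Odc1, Srm and Dhps were higher and Oaz2 was lower, against 19.7% and 17% of all genes. The 4 of 10 genes that stayed inside it in every comparison (Amd1, Oaz1, Azin1 and Dohh) compare with 44.2% of all genes, a like share.

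Odc1 (chr12:17544794-17551505, plus strand, mm10) was the most abundant of the 10 and the furthest above its young level in the aged vehicle library. It was at 1653 CPM in the fumarate, 1606 CPM in the vehicle and 1197 CPM in the young library. Both aged libraries were thus higher than the young one and close to each other. The log2 ratio was 0.42 in vehicle over young (95% interval 0.40 to 0.45, a 1.34-fold difference), 0.04 in fumarate over vehicle (0.02 to 0.07) and 0.47 in fumarate over young (0.44 to 0.49, 1.38-fold). Intervals here and below are Clopper-Pearson intervals on estimated reads, take in counting error only, and are for the ratio without the added 1. With libraries scaled to the T cell markers instead, the ratio was 0.71 in vehicle over young, past 1.5-fold, and −0.22 in fumarate over vehicle. That scaling moved the median of all genes to 0.30 in vehicle over young, −0.27 in fumarate over vehicle and 0.03 in fumarate over young, so relative to it Odc1 was again higher in vehicle over young and near the median in fumarate over vehicle.

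The regulators of the decarboxylase stood near or below their young levels. Oaz1 (chr10:80826656-80829290, plus strand) was at 232, 222 and 246 CPM in the fumarate, vehicle and young libraries, with log2 ratios of −0.15 in vehicle over young (interval −0.20 to −0.09, but 0.14 with T cell marker scaling) and −0.08 in fumarate over young (−0.14 to −0.03). Oaz2 (chr9:65668001-65690300, plus strand), the less abundant antizyme, was at 15.4, 17.8 and 23.3 CPM. It was lowest in the fumarate and highest in the young library. The difference of Oaz2 in fumarate over young was the largest of the 10 genes in any comparison of CPM as deposited. In vehicle over young Odc1 differed more than Oaz2, and in fumarate over vehicle Dhps did. The log2 ratio of Oaz2 was −0.37 in vehicle over young (−0.58 to −0.20), −0.20 in fumarate over vehicle (−0.47 to 0.05) and −0.57 in fumarate over young (−0.82 to −0.38, a CPM ratio of 0.660), on 213, 307 and 955 estimated reads. The last value lies just inside the 1.5-fold limit of 0.58 and passed it, at −0.60 with no constant added, and at −0.59 when the totals left out mitochondrial, ribosomal protein and receptor segment genes. Azin1 (chr15:38487427-38519266, minus strand) was at 133, 132 and 127 CPM, and its intervals included 0 in each comparison, from −0.01 to 0.13 in vehicle over young, −0.08 to 0.10 in fumarate over vehicle and −0.01 to 0.15 in fumarate over young.

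Ratios of genes within a library do not depend on how libraries are scaled. Odc1 over the sum of both antizymes was 6.68 in the fumarate library (interval 6.45 to 6.93), 6.70 in the vehicle library (6.49 to 6.93) and 4.45 in the young library (4.36 to 4.55). The aged libraries had overlapping intervals and were 0.59 higher on the log2 scale than the young one. Odc1 over Azin1 was 12.4, 12.2 and 9.44, and Odc1 over Sat1 was 13.4, 14.3 and 8.27, in both cases higher in the aged libraries. Oaz2 over Oaz1 was 0.0663 (0.0574 to 0.0762), 0.0802 (0.0712 to 0.0901) and 0.0949 (0.0887 to 0.101), lowest in the fumarate library, with intervals that overlap between neighbouring libraries. These are ratios of read shares and not of molecules, since the genes differ in length.

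**Figure D2:**
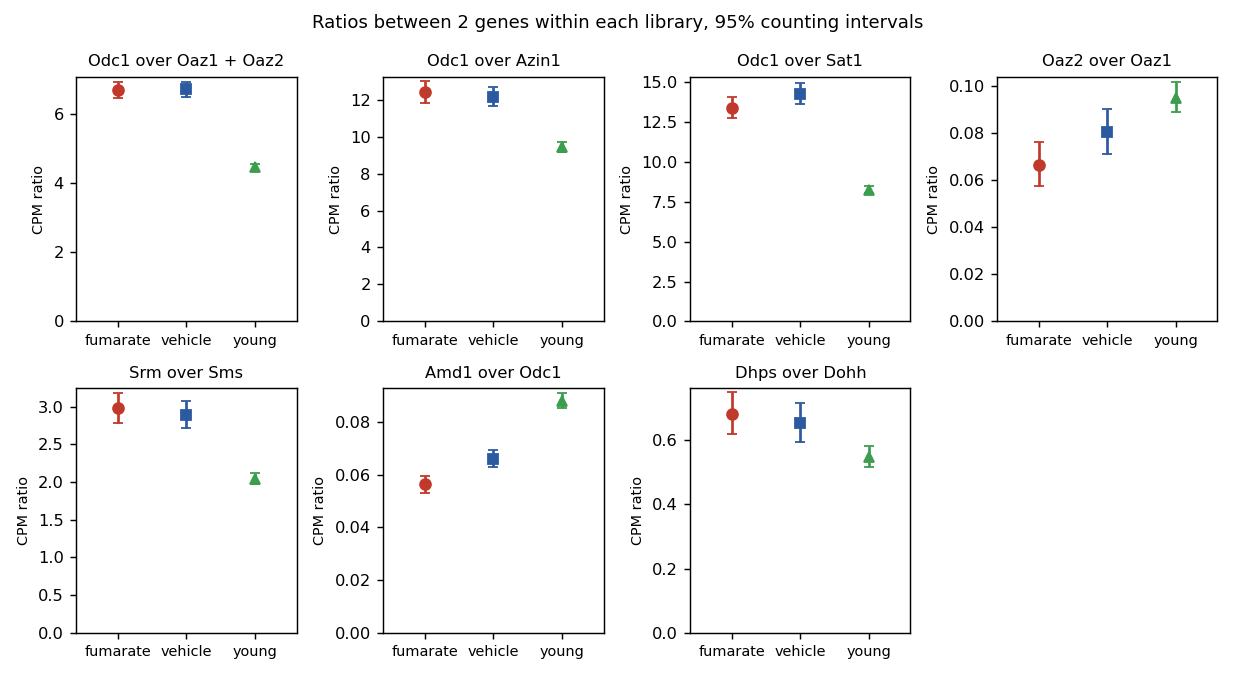
Ratio of CPM between genes within the aged fumarate, aged vehicle and young library, each axis starting at 0, with 95% counting intervals and 1 library per group. Odc1 over Oaz1 + Oaz2, over Azin1 and over Sat1, and Srm over Sms, are higher in both aged libraries, and Amd1 over Odc1 is lower.

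Of the synthesis genes after Odc1, the spermidine and spermine synthases stood on opposite sides of their young levels. Srm (chr4:148591503-148594993, plus strand) was at 257.6, 225 and 202 CPM in the fumarate, vehicle and young libraries. It was highest in the fumarate library, with log2 ratios of 0.15 in vehicle over young (0.10 to 0.21), 0.19 in fumarate over vehicle (0.13 to 0.26) and 0.35 in fumarate over young (0.29 to 0.41). Sms (chrX:157443855-157492287, minus strand) was at 86.6, 77.9 and 98.7 CPM, lowest in the vehicle library and highest in the young one. Its log2 ratios were −0.34 in vehicle over young (−0.43 to −0.25), 0.15 in fumarate over vehicle (0.04 to 0.27) and −0.19 in fumarate over young (−0.28 to −0.10). Srm over Sms within a library was 2.98 in the fumarate, 2.89 in the vehicle and 2.05 in the young library, so the aged libraries were 0.54 and 0.50 higher on the log2 scale. With the copy Sms-ps added to Sms, the ratio was 1.54, 1.48 and 1.05, and the aged libraries were 0.55 and 0.49 higher.

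Amd1 (chr10:40287458-40302188, minus strand) was at 93.2, 106 and 105.5 CPM and was the 1 synthesis gene that was lower in the fumarate library than in both others. The log2 ratio was −0.19 in fumarate over vehicle (−0.29 to −0.08) and −0.18 in fumarate over young (−0.27 to −0.09), against 0.01 in vehicle over young (−0.07 to 0.09). Relative to Odc1 it was 0.0564 in the fumarate, 0.0661 in the vehicle and 0.0881 in the young library. Amd1 cannot be read apart from its copy Amd2, since 1001 of their 1002 coding bases are identical and 87.6% of the 50-base stretches of the Amd1 transcript also occur in other genes. Amd2 was at 29.8, 42.5 and 34.3 CPM, also lowest in the fumarate library, and Amd1 summed with the rows that share at least 10% of its stretches had log2 ratios of 0.07, −0.27 and −0.21 in vehicle over young, fumarate over vehicle and fumarate over young.

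On the catabolic side, Sat1 (chrX:155213132-155216449, minus strand) was at 123.5, 112 and 145 CPM in the fumarate, vehicle and young libraries. It was lowest in the vehicle library and highest in the young one, with log2 ratios of −0.36 in vehicle over young (−0.44 to −0.29), 0.14 in fumarate over vehicle (0.04 to 0.23) and −0.23 in fumarate over young (−0.31 to −0.15). The summed dividing cell markers had the same order, at 1818, 1634 and 2162 CPM, with 0 of 6 past 1.5-fold. Among the 6, Ccnb1 was highest in the fumarate library (135, 119 and 131 CPM) and Mcm2 lowest in it (177, 184 and 230 CPM). The summed T cell markers had the order of Sat1 in part, with the vehicle library lowest and the fumarate library highest. Thy1 was the largest term of that sum (1453, 988 and 752 CPM), and 8 of the 12 T cell markers were lower in fumarate than in young. The part of both sets of markers in the Sat1 and Sms levels was not tested. With T cell marker scaling the vehicle over young ratio was −0.08 for Sat1 and −0.06 for Sms.

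The hypusination genes were higher in the fumarate than in the vehicle library, which was not so with T cell marker scaling (−0.00 and −0.07 for Dhps and Dohh). The median of all genes was −0.27 with that scaling. Dhps (chr8:85071757-85075162, plus strand) was at 51.6, 43.2 and 39.8 CPM, with log2 ratios of 0.11 in vehicle over young (−0.01 to 0.24), 0.25 in fumarate over vehicle (0.11 to 0.41) and 0.37 in fumarate over young (0.24 to 0.50, 1.30-fold). Of the 10 genes it was the furthest above 0 in fumarate over vehicle. Dohh (chr10:81384428-81388352, plus strand) was at 75.7, 66.2 and 72.5 CPM, with −0.13 (−0.23 to −0.03), 0.19 (0.07 to 0.32) and 0.06 (−0.04 to 0.16) in the same comparisons. Dhps over Dohh was 0.681 (0.618 to 0.749) in the fumarate, 0.652 (0.594 to 0.715) in the vehicle and 0.549 (0.516 to 0.583) in the young library. Eif5a, their substrate, was at 1835, 1652 and 1880 CPM, close to each other (log2 ratios −0.19, 0.15 and −0.03). Its paralog Eif5a2 was at 37.8, 26.4 and 24.3 CPM, higher in the fumarate library by 0.50 over vehicle (0.33 to 0.70) and 0.62 over young (0.48 to 0.79, 0.55 with 5 CPM added), and was past 1.5-fold in fumarate over young.

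Across the 10 genes, 8 of the 10 fumarate over vehicle ratios were above 0 and those of Amd1 and Oaz2 below. Of all genes, 53.5% had a lower ratio than Adi1, a gene outside the 10 that was at −0.0035. All 8 turned below 0 with T cell marker scaling, where Dhps was at −0.00 and Azin1 at −0.25. That scaling moved the median of all genes from −0.02 to −0.27, and the 8 genes stayed above this median. In vehicle over young the signs of Oaz1 and Dohh turned under that scaling, Amd1 turned under others and with totals that left out mitochondrial, ribosomal protein and receptor segment genes, and Azin1 under upper-quartile scaling. In fumarate over young no sign turned under any alternative run.

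**Figure D3:**
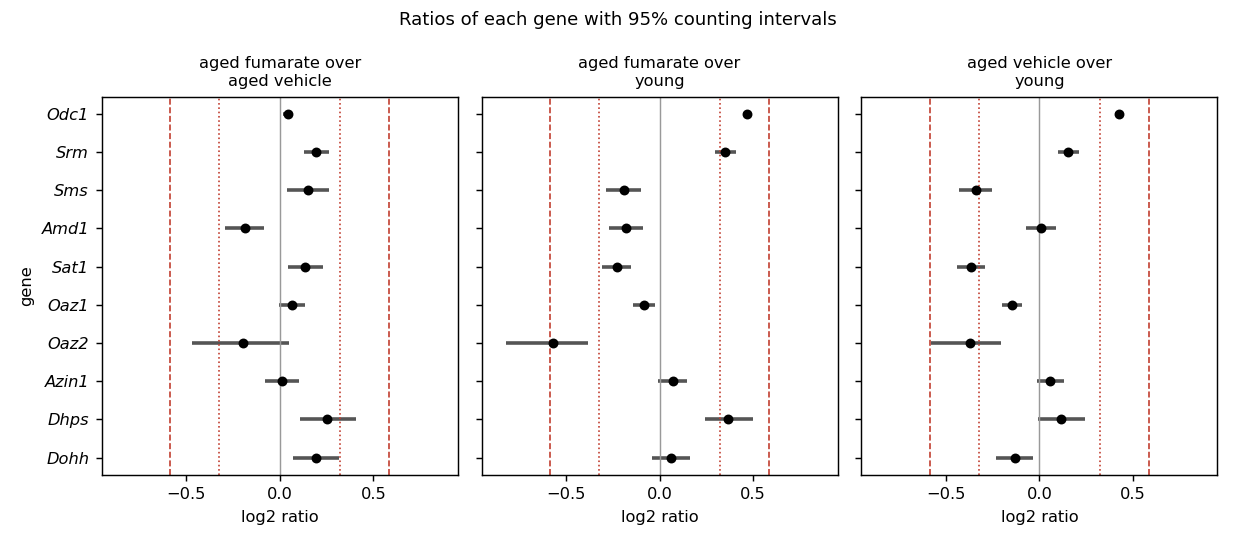
Log2 ratio of CPM + 1 for each gene (points) in 3 comparisons, with 95% counting intervals of the plain CPM ratio (bars); dotted and dashed lines mark log2 ratios of 0.32 and 0.58 (1.5-fold). With the added 1 no point lies past a dashed line, and Oaz2 in fumarate over young comes nearest at −0.57.

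**Figure D4:**
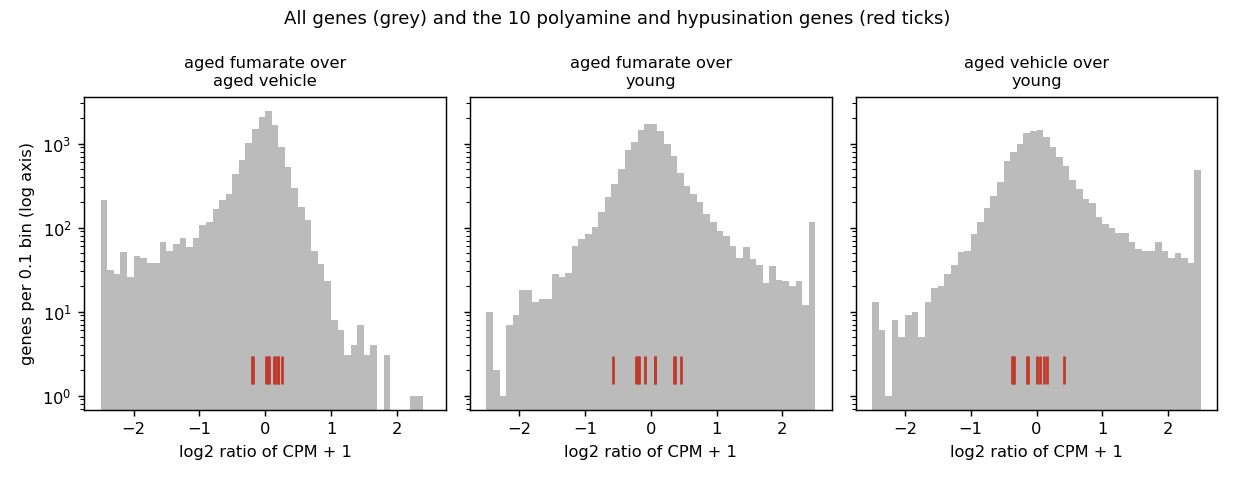
Number of genes per bin of log2 ratio of CPM + 1 (grey, log axis) for the 13750 genes with a mean of at least 1 CPM, with values beyond 2.5 put in the end bins, and the 10 genes as red ticks at an arbitrary height. All ticks lie between −0.57 and 0.47. In fumarate over young 7.05% of genes had a lower ratio than Oaz2 and 86.4% a lower ratio than Odc1, and in fumarate over vehicle 88.1% were below Dhps.

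Levels were set against each other per kb of merged exon. Odc1 led with 485, 472 and 352 CPM per kb in the fumarate, vehicle and young libraries, followed by Srm with 161, 141 and 126 and Oaz1 with 90.7, 86.7 and 96.0 CPM per kb. Sat1, Dohh and Amd1 followed in every library, then Azin1 and Dhps with 17.1 to 22.2 CPM per kb, Sms with 13.0 to 16.4 and Oaz2 with 5.14 to 7.79 CPM per kb. The order was the same in each library except that Dhps stood above Azin1 in the fumarate library and below it in the others. These levels leave out the rows Sms-ps and Oaz1-ps, which stood at 93.4% to 95.5% of Sms and 85.0% to 92.9% of Oaz1. The places of Sms and Oaz1 thus rest on how reads were divided among such copies. The order also depends on the length used. Per kb of the main transcript Oaz1 stood above Srm and Dhps above Azin1 in each library, Dhps also stood above Amd1 in the fumarate library, and Sat1 stood above Srm and Sms above Azin1 in the young library, while Odc1 remained first and Oaz2 last. With 1 library per group the spread of each level is unknown.

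Several of the genes share sequence with other rows of the table, so that their separate levels rest on how reads were divided. Of the 50-base stretches in the main transcript, 66.2% of Dohh also occur in Gm48551 (1.96, 3.61 and 1.16 CPM in the fumarate, vehicle and young libraries), 53.9% of Oaz1 in Oaz1-ps (199, 188 and 228 CPM) and 28.7% of Sms in other genes, led by Sms-ps (80.8, 74.4 and 93.8 CPM). The Sms-ps row stood at 93.4% to 95.5% of Sms, and its log2 ratios of −0.33, 0.12 and −0.21 were near those of Sms. For Odc1, 42.2% of stretches occur in other genes, and the 8 rows that hold at least 10% of them summed to 460, 457 and 333 CPM, a steady 27.8%, 28.5% and 27.8% of Odc1. Adding such rows left Odc1 at 0.43, 0.03 and 0.47, and Odc1 over both antizymes at 4.73, 4.81 and 3.08. The largest overlap of exons is that of Dohh with Gm48551, on the same strand, over 47.5% of the exon bases of Dohh. Oaz1 overlaps Mir1982 on the same strand over 2.89%. Counting by strand would not separate these. Dhps overlaps Wdr83 on the opposite strand over 5.51% of its exon bases and Azin1 overlaps Gm49077 over 5.72%, and whether reads were counted by strand is unknown here.

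Around the 10 genes, 33 other genes of the pathway and of the MYC network had a mean of at least 1 CPM. MYC is a transcription factor known to drive Odc1 in dividing cells. Of the 33, 6 were at least 1.5-fold higher and 4 lower in vehicle over young, 1 higher and 4 lower in fumarate over vehicle, and 5 higher and 4 lower in fumarate over young. These are 18.2% and 12.1%, 3.03% and 12.1%, and 15.2% and 12.1% of the 33, against 16.5% and 6.73%, 2.15% and 11.2%, and 10.5% and 6.79% of all genes in the same comparisons. Of these 24 cases, 10 were inside the limit under at least 1 alternative. Among the 8 genes of the MYC network 3 were higher and 1 lower in vehicle over young, 2 lower in fumarate over vehicle, and 1 higher and 1 lower in fumarate over young. Of 4 genes for arginine and ornithine supply, Slc7a2 was higher and Aldh18a1 lower in both comparisons with young, and Slc7a2 was lower in fumarate over vehicle. Of 3 paralogs of the 10 genes and of Eif5a, Azin2 was higher in both comparisons with young and lower in fumarate over vehicle, and Eif5a2 was higher in fumarate over young. Of 5 genes for methylthioadenosine salvage, Adi1 was lower in both comparisons with young, as was Tfeb beside Eif5a. No gene for methionine and S-adenosylmethionine supply (6 genes) or polyamine transport (3 genes) was past 1.5-fold in any comparison.

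Smox, the spermine oxidase that turns spermine back into spermidine, was the 1 gene of the 33 that was at least 1.5-fold higher in fumarate over vehicle. It was at 125.5 CPM in the fumarate, 79.8 CPM in the vehicle and 40.2 CPM in the young library, on 1739, 1377 and 1648 estimated reads, in the order opposite to Oaz2. Its log2 ratios were 0.97 in vehicle over young (0.88 to 1.09), 0.65 in fumarate over vehicle (0.55 to 0.76) and 1.62 in fumarate over young (1.54 to 1.74). With T cell marker scaling the fumarate over vehicle value was 0.39, which is inside the limit, while the other comparisons stayed past it. Within a library Smox over Odc1 was 0.0759 in the fumarate, 0.0497 in the vehicle and 0.0336 in the young library.

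Among the paralogs, Azin2 was at 5.63, 12.05 and 0.634 CPM in the fumarate, vehicle and young libraries, with log2 ratios of 3.00, −0.98 and 2.02 in vehicle over young, fumarate over vehicle and fumarate over young. It was highest in the library that also held most erythroid, platelet and mast cell marker RNA. So was Mycn, a relative of MYC, at 32.1, 58.9 and 1.73 CPM (4.45, −0.85 and 3.60), and Slc7a2, a cationic amino acid transporter, at 1.30, 3.36 and 0.0244 CPM, the last of these about 1 estimated read. The part of the other blood cells in these 3 genes was not tested. Myc itself was at 332, 313 and 418 CPM, lower in the aged libraries, where Odc1 was higher. The log2 ratios of Myc were −0.42 in vehicle over young (−0.46 to −0.38, but −0.14 with T cell marker scaling) and −0.33 in fumarate over young (−0.38 to −0.29). A link between the Myc and Odc1 levels was not tested. Max, the partner of MYC, was at 82.3, 105 and 147 CPM, with −0.83 in fumarate over young.

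**Figure D5:**
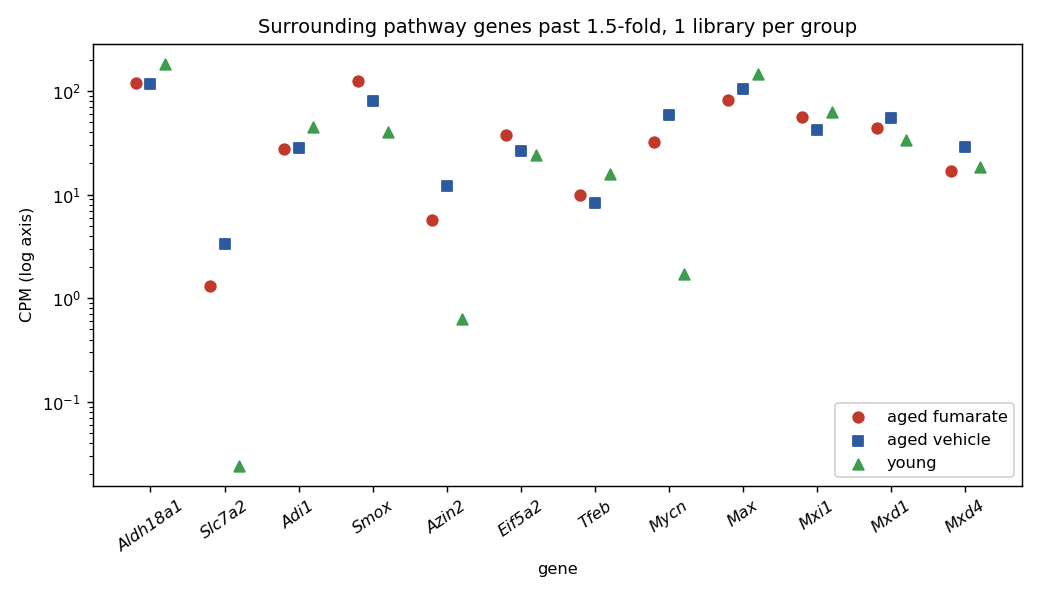
CPM on a log axis of the 12 other genes of the pathway and MYC network lists that were past 1.5-fold in at least 1 comparison, in the aged fumarate (circle), aged vehicle (square) and young (triangle) library. Smox is highest in the fumarate library, and Slc7a2, Azin2 and Mycn are highest in the vehicle library and lowest in the young one.

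Of the repressors and antagonists in the MYC network, Mxd1 was at 44.2, 54.8 and 33.3 CPM and Mxd4 at 17.0, 28.7 and 18.4 CPM in the fumarate, vehicle and young libraries, both highest in the vehicle library. Their log2 ratios were 0.70 and 0.61 in vehicle over young, −0.30 and −0.72 in fumarate over vehicle, and 0.40 and −0.11 in fumarate over young. With 5 CPM added, Mxd4 was at 0.53 in vehicle over young, inside the limit. In fumarate over vehicle Mxd4 stayed past 1.5-fold lower under every alternative run. Mxi1 was at 55.8, 41.7 and 63.1 CPM, lowest in the vehicle library, with −0.59 in vehicle over young (−0.31 with T cell marker scaling) and −0.17 in fumarate over young. In ornithine supply, Aldh18a1, which makes the proline and ornithine precursor from glutamate, was at 119, 115 and 181 CPM, lower in vehicle over young by a log2 ratio of −0.65 (−0.37 with T cell marker scaling) and in fumarate over young by −0.61 (−0.58 with that scaling). Adi1, of methylthioadenosine salvage, was at 27.8, 27.9 and 44.7 CPM, with −0.66 in vehicle over young (−0.39 with that scaling) and −0.67 in fumarate over young. Tfeb, a transcription factor of lysosome genes whose translation depends on hypusinated eIF5A, was at 9.89, 8.28 and 15.8 CPM, with −0.86, 0.23 and −0.63 in vehicle over young, fumarate over vehicle and fumarate over young.

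Promoter sequence was examined for CACGTG, the E-box that MYC and MAX bind, in the 300-base RefSeq windows across each start site (GRCm38.p6). Windows were found for 8 of the 10 genes, and Srm and Azin1 had none. Sequence outside the windows was not examined, so a gene without a match here, such as Odc1, may hold the motif elsewhere. The motif reads the same on both strands. It occurred in windows of Sms and Dohh, 2 of 9 windows, against 7.15% of 32851 windows in the table, and these 60-base stretches are shown because they are the only matches. The capitals mark the motif. The first is at chrX:157492451-157492510 on the minus strand, with the motif at −196 from the start site, and the second at chr10:81384409-81384468 on the plus strand, with the motif 2 bases after it.
Sms: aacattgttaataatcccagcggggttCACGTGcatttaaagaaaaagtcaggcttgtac
Dohh: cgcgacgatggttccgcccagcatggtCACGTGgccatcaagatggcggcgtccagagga
A match describes these letters and not a bound site. Sms was lower and Dohh slightly lower in vehicle over young (−0.34 and −0.13), and both were above 0 in fumarate over vehicle (0.15 and 0.19), where they turned below 0 with T cell marker scaling.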

How the data were processed

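Per the labels' protocols, 500 ng of RNA entered a SMARTER mRNA library kit. STAR, Partek and the mm10 build were used, per the submitters' processing notes, with no version, annotation or strand setting given. Although its name says raw counts, the deposited table holds CPM: each column has a sum of 1000000. Depth was estimated from the step at which low values repeat, yet with a tolerance of 0.02 reads only 66.4% to 70.8% of genes sat at whole reads, so no count model was fitted. A floor of 3 reads was chosen, which is 0.217, 0.174 and 0.0732 CPM for the fumarate, vehicle and young libraries. Listed values go below it, as for Slc7a2 at 0.0244 CPM in the young library. A gene listed at 0 may still be expressed at a low level.

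Groups were taken from the titles. Ratios are of CPM + 1, with limits of 1.5-fold and a log2 ratio of 0.32, for genes with a mean of at least 1 CPM. The steps were run on simulated reads that were all whole, whereas not all genes here sat at whole reads. That run therefore cannot show how well depth and intervals were estimated here. The 95% Clopper-Pearson intervals cover counting error only, since reads are not independent molecules. Named are all 10 genes, members of the surrounding lists past 1.5-fold, and Eif5a, Smox and Myc whatever their value. Amd2, Paox, the other copies and the ratio of Smox over Odc1 were added after their values were seen. The genes and lists were chosen with earlier results of these data known. Gene ends were moved back by 1 base, after which 9 of 10 positions matched GENCODE M21 (Amd1 differs by 2 bases at its end), and transcripts, exon lengths and shared 50-base stretches come from that release. Promoters come from RefSeq. Arg1, Arg2, Agmat, Sat2 and Slc18b1 were not analysed here. Tables and intervals were made with scipy 1.17.1, pandas 2.3.3 and numpy 2.4.6 in Python 3.11.15, and plots with matplotlib 3.10.9.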

Additional observations from a re-analysis of the deposited data

How the results depend on the processing

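No paired analysis was possible because each group has 1 library, and for the same reason no replicate could be left out. The count of genes at least 1.5-fold higher in vehicle over young was 0, and 1 with T cell marker scaling or with the limit at a log2 ratio of 0.32, and the count at least 1.5-fold lower was 3 with that limit. With T cell marker scaling the counts past 0.32 were 4 higher and 0 lower in vehicle over young and 2 lower in fumarate over vehicle. In fumarate over young, the limit of 0.32 gave 3 higher and 1 lower, and totals without mitochondrial, ribosomal protein and receptor segment genes, or no constant added, each gave 1 gene past 1.5-fold lower (Oaz2). The cause was not tested. The other 134 counts under alternatives stayed within 1.5 times the value given, with 0 counted as such when it stayed 0. Of the log2 ratios, 271 moved by less than their counting error and 29 by more. Summing with named copies moved 12 within-library ratios beyond their intervals and left 9 inside, and summing with rows that share sequence moved 18 and left 3. The summing of rows that share sequence, the summing of copies for counts and log2 ratios, and the omission of the constant were chosen after seeing the data.

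Over all genes, T cell marker scaling gave 26.4% higher and 3.16% lower in vehicle over young and 0.771% higher and 17.9% lower in fumarate over vehicle. Adding 5 CPM gave 12.1% and 3.91% in vehicle over young, 0.793% and 7.63% in fumarate over vehicle, and 5.64% and 3.83% in fumarate over young. A minimum of 10 CPM gave 1.43% and 6.57% in fumarate over vehicle. Depth limits Oaz2 most, with 213 estimated reads in the fumarate library. Differences between mice of 1 group could not be measured.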

Other observations

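The genes with a mean of at least 50 CPM whose pair of log2 ratios, vehicle over young and fumarate over vehicle, lay nearest to that of Odc1 were Sirt2 (distance 0.0127), Zfp598 (0.0229) and Ptpn23 (0.0244), and 67 of 4232 genes lay within 0.1. Sirt2 was at 83.7, 81.9 and 61.1 CPM in the fumarate, vehicle and young libraries. Nearest to Sat1 were Top2a (0.00508), Cdk1 (0.00573) and Parp1 (0.00625), with 209 of 4232 genes within 0.1. Top2a and Cdk1 belong to the dividing cell markers, of which Ccnb1 and Mcm2 had another order. Top2a was at 562, 510 and 655 CPM. These distances rest on 3 libraries and describe them alone.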
